A study of Oryctolagus cuniculus with 16 samples.

Results

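ENSOCUG00000013194 is a rabbit gene on chromosome 9 (11495298 to 11632637, minus strand, coordinates as the deposited files give them) that is probably PPARG, the gene of the peroxisome proliferator-activated receptor gamma. It is 1 of the 23669 genes listed in the files. It was chosen by its identifier after earlier results of these data had placed it 2nd in order of p among the genes compared between treatments in oligodendrocyte progenitor cells (OPC). Its values in OPC are therefore a description, with no test. The microglia libraries were not used to choose the gene, although earlier results of these data were known.

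The libraries came from New Zealand rabbit kits, born prematurely, that had all developed intraventricular haemorrhage, a bleeding into the fluid-filled ventricles of the brain. Every kit received an adenovirus into the cerebral ventricle. In the Ad-PPARg groups the virus carried PPARg with green fluorescent protein (GFP) under a CMV promoter, a viral promoter that is active in many cell types, and in the Ad-GFP groups, the vector control, it carried GFP alone. At day 7, microglia (CD11b-positive, CD45-low) and O4-positive OPC were sorted from the cerebral hemispheres, and bulk RNA of each cell type was sequenced for 4 animals of either treatment, which makes 16 libraries. No gate on GFP is described, so that transduced and untransduced cells were read together. All 16 libraries of the study were used, and none of them came from kits without virus or without haemorrhage.

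PPAR gamma is a nuclear receptor that binds DNA as a heterodimer with a retinoid X receptor and changes the transcription of its targets when it binds fatty acid derivatives or synthetic ligands. In macrophages and microglia it is known for promoting lipid uptake and for restraining inflammatory genes. In cells of the oligodendrocyte lineage its ligands are known to favour maturation. The retinoid X receptors, coactivators and lipid-handling targets that belong to the pathway, and the defining markers of the cell types, could not be looked up, because the files hold no symbols and 0 of the 23669 identifiers matched the 38822 genes of the RefSeq table of assembly mOryCun1.1.

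The gene spans 137 kb, longer than 93.5% of the listed genes, and its 8 exon entries add up to 2102 bp, or 1.53% of the span. In the order of transcription the exons are 389, 77, 228, 170, 139, 200, 451 and 448 bp long. The longest intron, of 71786 bp, lies between the 2nd and the 3rd exon. In the RefSeq table, SYN2 is a protein-coding neighbour of PPARG, and TIMP4 lies inside the span of SYN2. The files show an arrangement of the same kind. The nearest gene on the side of the 5′ end, at a distance of 103 kb (11735391 to 11932910, minus strand, 14 exon entries), holds a smaller gene on the opposite strand within its span (11767817 to 11773763, 5 exon entries). No gene in the files overlaps ENSOCUG00000013194, on either strand. The identity is treated as probable throughout. A count on this gene sums whatever reads were assigned to its exons, and reads from the animal's own gene and from a viral PPARg cDNA cannot be told apart in it. The labels do not give the species of that cDNA. Reads of a cDNA from another species may have been assigned to the rabbit gene only in part, so the levels and folds after Ad-PPARg may understate the transgene and are not a measure of it.

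**Figure D1:**
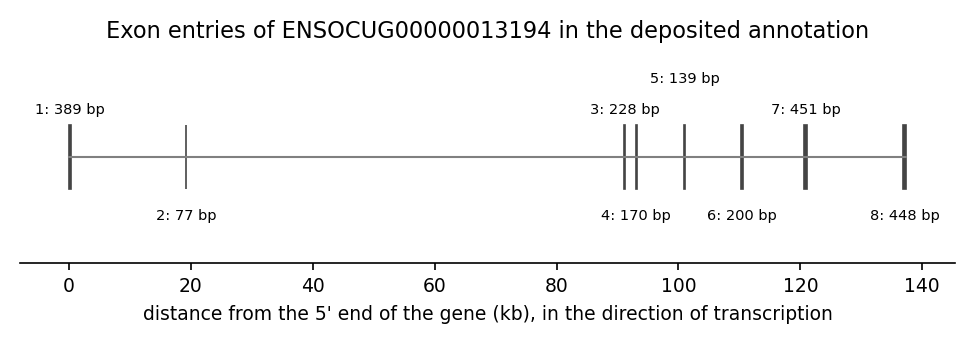
Exon entries of ENSOCUG00000013194 along the gene, with the distance from its 5′ end in kb on the x axis and the exon number and length above or below each exon. Exons 3 to 8 lie in the last part of the gene, and the first 2 exons are set apart by the 71786 bp intron.

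Total counts on genes ran from 6242342 to 17608855 per library. Levels are given as counts-per-million (CPM) of library totals, scaled by TMM over all 16 libraries, and intervals around a count are exact 95% Poisson intervals, which cover counting error only. The first part of an animal's identifier (such as K197), called the prefix here, never occurs with both viruses. The 6 prefixes therefore fall 3 to each treatment. The labels do not say what the prefix stands for, and the prefix and the treatment cannot be told apart. Each library of a group comes from a different animal.

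Microglia carried the gene in every library, and at a far higher level than OPC. In microglia of Ad-GFP kits it was at 34.4, 21.0, 32.3 and 33.8 CPM in replicates 1 to 4, from 200 to 436 counts per library. Replicates 1, 3 and 4 lay close together, and replicate 2 was lower, with an interval of 18.6 to 23.6 CPM that did not reach the 29.3 CPM at which the intervals of replicates 3 and 4 began. In OPC of the same treatment it was at 0.537, 1.04, 1.22 and 0.389 CPM, from only 3 to 16 counts per library. The OPC levels were all under those of microglia, and their counting intervals overlapped one another: the 3 counts of replicate 4 have an interval of 0.619 to 8.77 counts. In bulk RNA, fewer cells that carry a transcript and less of it per cell cannot be told apart.

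In Ad-GFP kits the fit of all 16 libraries put the gene 36.9-fold lower in OPC, at a log2 difference of -5.21 (SE 0.36). Each of the 4 OPC libraries was below each of the 4 microglia libraries. The share of all genes that separate in this way is not given here, so nothing is read from the separation. Low values in OPC of Ad-GFP kits had a part in choosing the gene, through the comparison of treatments in OPC, so this difference too is a description, with no test. Of the 14699 genes tested between the cell types in these kits, 29.4% were called lower in OPC (edgeR adjusted p under 0.05), and nothing is read from that share for this gene. Scaling by library totals alone gave a log2 fold change of -4.63, with the median of all genes moved from -0.0096 to 0.56.

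Per kilobase of exon the gene stood in the upper part of the list of genes in microglia and below its middle in OPC of control kits. In the microglia Ad-GFP libraries 69.9 to 76.0% of the listed genes had a lower level per kilobase, and 75.7 to 83.2% in the microglia Ad-PPARg libraries. In the OPC Ad-GFP libraries it was 34.7 to 41.7%, and in the OPC Ad-PPARg libraries 51.6 to 57.5%. Of the 23669 listed genes, only 13041 passed the filter on low counts in microglia and 13492 in OPC. The percentages are therefore not ranks among expressed genes. The mean level was 14.4 ± 3.00 CPM per kilobase in microglia Ad-GFP, 21.6 ± 5.66 in microglia Ad-PPARg, 0.380 ± 0.190 in OPC Ad-GFP and 2.85 ± 0.844 in OPC Ad-PPARg (SD, n = 4 each).

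In OPC the level was higher after Ad-PPARg in every library. It was at 7.44, 7.55, 4.07 and 4.88 CPM in Ad-PPARg replicates 1 to 4, from 59 to 128 counts per library, against the 0.389 to 1.22 CPM of the Ad-GFP libraries. The groups did not overlap: the lowest Ad-PPARg library lay 3.33-fold above the highest Ad-GFP library, and its counting interval began at 3.10 CPM, above the 2.05 CPM at which the highest interval of an Ad-GFP library ended. Means were 5.99 ± 1.78 and 0.799 ± 0.399 CPM (SD, n = 4 each). The fitted log2 fold change was 2.89 (SE 0.44), or 7.40-fold, the 5th largest increase among the 13492 genes fitted in OPC. Libraries without overlap and higher after Ad-PPARg were found for 0.460% of these genes. This is the contrast on which the gene was chosen, so neither the rank nor this share adds support.

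Within the Ad-PPARg OPC libraries the level differed by 1.85-fold from the lowest to the highest. Replicates 1 and 2 were close to each other and above replicates 3 and 4. By prefix, the K188 animal was at 7.44 CPM, the K196 animal at 4.88 CPM and the mean of the K197 animals was 5.81 CPM. The K197 animals themselves were at 7.55 and 4.07 CPM, so the spread inside this prefix covered the whole range of the group. The Ad-GFP prefixes K195 and K198 had nearly equal means, 0.790 and 0.807 CPM (n = 2 each). Replicate 4, which stood apart from the other OPC libraries in the share of counts on OPC-enriched genes (16.9% against 11.9 to 14.2%), was among the lower libraries of its group, and without it the log2 fold change was 2.98.

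**Figure D2:**
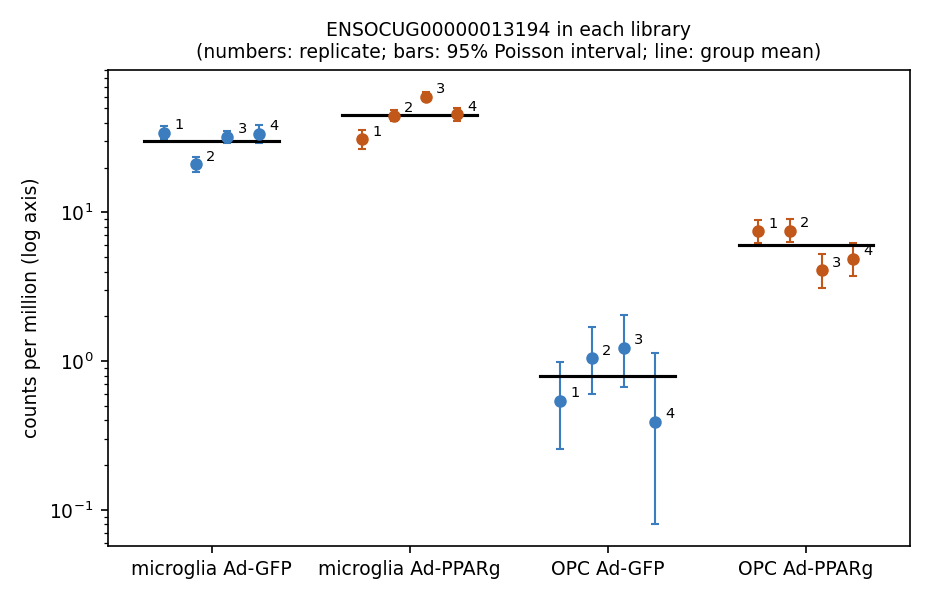
Level of ENSOCUG00000013194 in each of the 16 libraries, in CPM on a log axis, by cell type and treatment; points are libraries, bars their 95% Poisson intervals, lines the group means of 4. Microglia of both treatments lie at 21.0 to 60.0 CPM, and the OPC Ad-PPARg libraries lie between them and the OPC Ad-GFP libraries, which are at 0.389 to 1.22 CPM.

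In microglia, the first of the design's comparisons, the mean level was also higher after Ad-PPARg, but the gene did not pass the test and the treatments overlapped. After Ad-PPARg it was at 30.9, 44.7, 60.0 and 45.5 CPM in replicates 1 to 4. Replicate 1 lay inside the range of the Ad-GFP libraries (21.0 to 34.4 CPM) and replicates 2, 3 and 4 above it, so that an Ad-PPARg library was higher in 13 of the 16 pairs of libraries. Means were 45.3 ± 11.9 and 30.4 ± 6.31 CPM (SD, n = 4 each). The two-sided exact permutation p was 0.114. The fitted log2 fold change was 0.56 (SE 0.21), or 1.48-fold, and did not pass the threshold (edgeR adjusted p = 0.421, unadjusted p = 0.0221).

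No microglial gene reached the threshold in this fit: edgeR called 0 of 13041 genes (0%), with 1489 at an unadjusted p under 0.05, and DESeq2 called 121. By limma voom with sample quality weights, which called 1285 genes, the gene had a log2 fold change of 0.61 and an adjusted p of 0.0457, and over the other alternatives its adjusted p ran from 0.161 to 0.858. In the edgeR fit it was 677th in order of p and had the 1245th highest log2 fold change. By prefix, the microglia Ad-PPARg means were 30.9 (K188), 44.7 (K196) and 52.8 CPM (K197, n = 2), and the Ad-GFP means 34.4 (K193), 26.6 (K195, n = 2) and 33.8 CPM (K198). The K188 animal was below 2 of the 3 Ad-GFP prefixes.

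The cell types ranked differently by fold and by amount. The fitted fold was larger in OPC, with a log2 difference of the treatment effects of 2.29 (SE 0.44), which is given without a test because it contains the OPC contrast. In CPM, the difference between the treatment means was larger in microglia, 14.9 against 5.19 in OPC, although the microglial one is that of the comparison that did not pass. After Ad-PPARg the gap between the cell types was narrower, at a log2 fold change of -2.92 (SE 0.30) for OPC against microglia, or 7.55-fold lower in OPC, again a description. The lowest microglia library of either treatment was 2.78-fold above the highest OPC library.

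Both cell types were read in 6 of the 10 animals, 3 per treatment. Among the Ad-GFP animals, K195-9 had 21.0 CPM in microglia and 0.537 in OPC, K195-11 had 32.3 and 1.04, and K198-7 had 33.8 and 0.389. The microglial level was 39.1, 30.9 and 86.8 times the OPC level in these animals, the last resting on 3 counts. Among the Ad-PPARg animals, K188-11 had 30.9 CPM in microglia and 7.44 in OPC, K197-3 had 60.0 and 7.55, and K197-4 had 45.5 and 4.07. Their ratios were 4.15, 7.95 and 11.2, all lower than those of the Ad-GFP animals. The ratios contain the OPC levels on which the gene was chosen, so this order is a description and adds no support.

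The order of the animals was not the same in the 2 cell types. K188-11 had the lowest microglial level of the Ad-PPARg animals, inside the Ad-GFP range, while its OPC level was level with that of K197-3 within the counting intervals (6.19 to 8.87 and 6.30 to 8.97 CPM). K197-3 was highest in both cell types, and K197-4 was second in microglia and lowest in OPC. With 3 animals per treatment, and treatments that differ in OPC, no correlation between the cell types was computed.

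**Figure D3:**
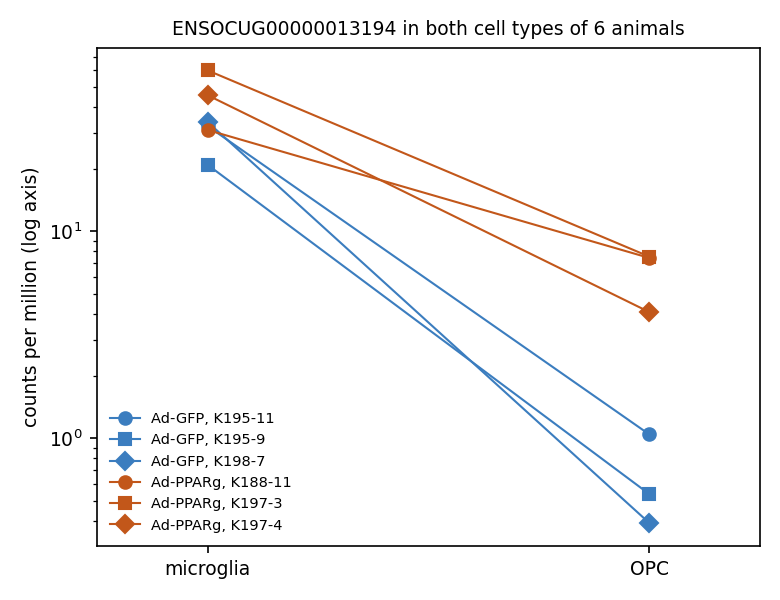
Level of ENSOCUG00000013194 in microglia (left) and OPC (right) of the 6 animals that gave both, in CPM on a log axis; each line is an animal, coloured by treatment. All lines fall from microglia to OPC, the Ad-GFP lines by 30.9 to 86.8 times and the Ad-PPARg lines by 4.15 to 11.2 times. K188-11 and K197-3 nearly coincide in OPC. The gene was chosen on its OPC levels, so the gap between treatments there is a description.

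Because the gene is so much higher in microglia, its OPC counts were set beside the amount of microglial RNA in the OPC libraries. The 827 other genes that were at least 16-fold higher in microglia (edgeR adjusted p under 0.05 over all 16 libraries) held 25.02% ± 1.29 of the counts in microglia Ad-GFP and 0.824% ± 0.159 in OPC Ad-GFP, and 23.9% ± 1.84 and 0.777% ± 0.275 in the Ad-PPARg groups (SD, n = 4 each). The share of these genes in an OPC library, divided by their mean share in microglia of the same treatment, was multiplied by the mean level of ENSOCUG00000013194 in those microglia. This gives, as a reference, the level the gene would have in OPC if all its counts there came from microglial RNA. The set was defined on the same libraries, some of its genes may be expressed by OPC themselves, and CPM here are relative to library totals without TMM scaling.

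In the Ad-GFP OPC libraries the measured level was of the size of this reference. It was 0.634, 1.28, 1.55 and 0.457 CPM in replicates 1 to 4, against references of 0.664, 0.720, 1.01 and 0.862 CPM, and the ratio of measured to reference ran from 0.530 to 1.78. In the Ad-PPARg OPC libraries the measured levels of 8.75, 10.2, 5.00 and 4.92 CPM were 4.55 to 9.50 times the references of 0.921, 1.90, 1.09 and 1.08 CPM. These are the libraries whose high level led to the choice of the gene, and the low levels of the Ad-GFP libraries had a part in it. The ratios of both treatments are therefore a description, and those of Ad-GFP rest on 3 to 16 counts per library. The share of microglia-enriched genes in OPC overlapped between the treatments, at 0.574 to 1.18% after Ad-PPARg and 0.671 to 1.03% after Ad-GFP. What part of the counts in OPC came from microglial RNA was not tested, in either treatment.

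Set against the single genes of the microglia-enriched set, ENSOCUG00000013194 lay near the middle in control kits and at the upper end after Ad-PPARg. Its mean level in OPC was 2.63% of that in microglia in Ad-GFP kits, where the set had a median of 2.48% (quartiles 1.46 and 4.16%). In Ad-PPARg kits its ratio was 13.2%, against a median of 2.05% in the set, and 826 of the 827 genes had a lower ratio. The set was limited to genes at least 16-fold lower in OPC over both treatments, which kept its ratios low. The count of genes under 13.2% was therefore largely fixed in advance. Of the 565 genes of the set fitted in OPC, 372 had a lower level after Ad-PPARg and the median log2 fold change was -0.14. Of all 13492 genes fitted in OPC, 5732 were lower, and their median was 0.03. A single gene of the set, 1 of 565, had a larger value than ENSOCUG00000013194. These counts and ratios use OPC levels on which the gene was chosen and the genes that defined the set, and are a description.

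The same reference, computed for OPC RNA in the microglia libraries, was small beside the level measured there. The 742 genes at least 16-fold higher in OPC held 0.226 to 0.495% of the counts in microglia Ad-PPARg and 0.101 to 0.337% in microglia Ad-GFP. The corresponding reference was at most 0.264 CPM, in Ad-PPARg replicate 3, where 51.3 CPM were measured. That library had both the highest level of the gene and the highest share on OPC-enriched genes among microglia libraries, and without it the log2 fold change in microglia was 0.40. Most OPC-enriched genes had a higher fitted level in microglia after Ad-PPARg, with none called by edgeR. Of the 524 fitted there, 469 had a positive log2 fold change and 55 a negative one, where 53.6% of all genes tested were positive. Their median was 0.47, and that of all genes was 0.03. The value of ENSOCUG00000013194, 0.56, was near this median, and 35.9% of the 524 genes exceeded it. The difference of the gene had the sign of most of these genes, and nothing about its cause is read from that. On library totals, the mean level of ENSOCUG00000013194 in microglia was 38.4 CPM after Ad-PPARg and 24.8 CPM after Ad-GFP. The mean references for OPC RNA were 0.171 and 0.0166 CPM in the same groups. The part of OPC RNA in its microglial difference was not tested.

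**Figure D4:**
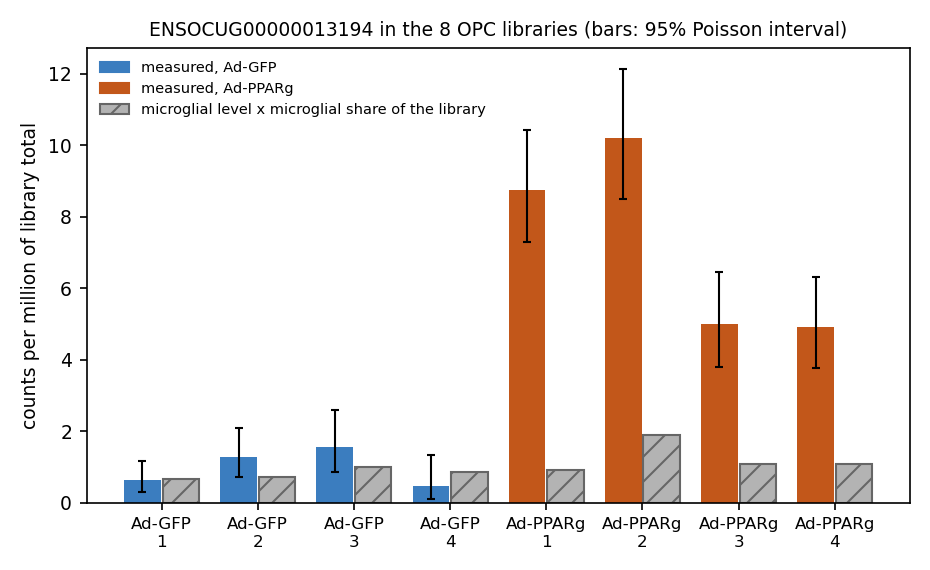
Measured level of ENSOCUG00000013194 in the 8 OPC libraries (coloured bars, with 95% Poisson intervals) beside the reference level (hatched bars), in CPM of the library total without TMM scaling. The reference takes all counts on microglia-enriched genes as microglial RNA, although OPC may express some of these genes. Measured and reference levels are of similar size in the 4 Ad-GFP libraries, and the measured level is 4.55 to 9.50 times the reference in the 4 Ad-PPARg libraries. The gene was chosen on its OPC levels, so both are a description.

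The genes around ENSOCUG00000013194 on chromosome 9, chosen by position alone, had fold changes close to 0 in OPC. Of the 10 nearest genes, 6 could be tested in OPC. Their log2 fold changes ran from -0.02 to 0.14 with a median of 0.0084, 5 higher and 1 lower after Ad-PPARg, where the median of all genes tested was 0.03 and 57.5% were higher. In microglia 6 could be tested, 2 higher and 4 lower, from -0.56 to 0.13 with a median of -0.11, where the median of all genes was 0.03. None of them passed the threshold in either cell type (lowest edgeR adjusted p 1.00 in OPC and 0.567 in microglia). Of all genes tested, edgeR called 0 of 13492 in OPC and 0 of 13041 in microglia, so nothing is read from this for the neighbours.

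The nearest gene on the side of the 5′ end, at 103 kb, had a log2 fold change of -0.02 (SE 0.28) in OPC and of -0.56 (SE 0.38) in microglia. Over all 29 genes within 1 Mb, 21 were tested in OPC, with log2 fold changes from -0.32 to 0.52, and 17 in microglia, from -0.56 to 0.53.

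**Figure D5:**
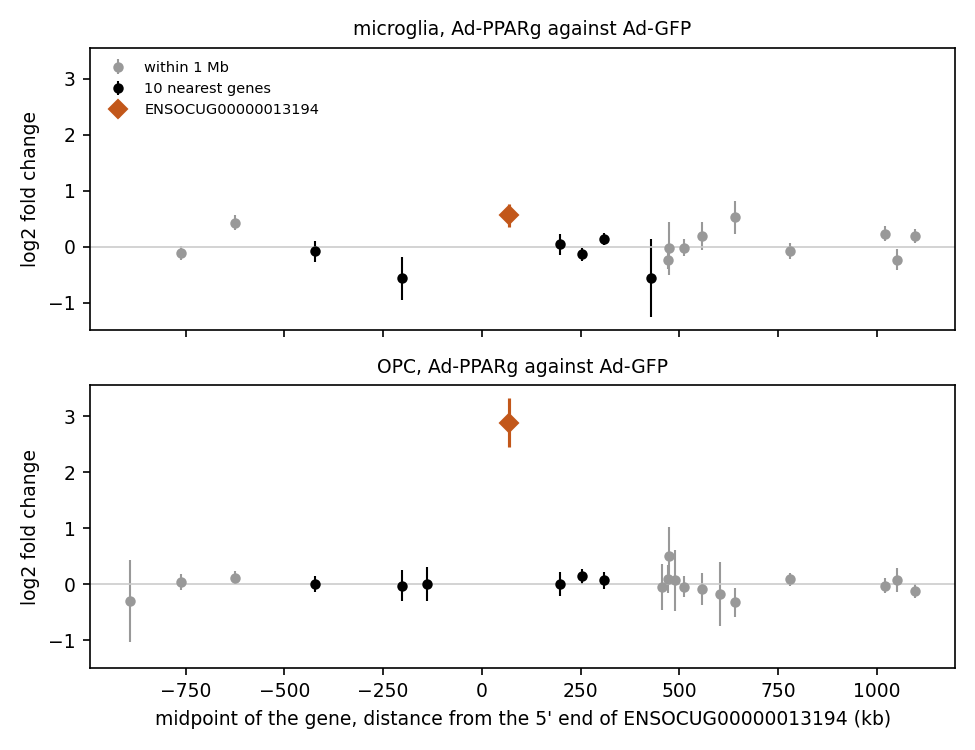
Log2 fold change after Ad-PPARg against Ad-GFP in microglia (top) and OPC (bottom) for the tested genes within 1 Mb of ENSOCUG00000013194, by the distance of their midpoint from its 5′ end in kb; points are fitted values and bars their SE. In OPC the gene itself is at 2.89 and its neighbours lie between -0.32 and 0.52; in microglia it is at 0.56, close to the largest value of a neighbour, 0.53.

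The genes most like ENSOCUG00000013194 in their level over the 16 libraries were high in microglia and had a higher mean in OPC after Ad-PPARg than after Ad-GFP. Genes of like and of opposed pattern were picked by correlation with a gene chosen on its OPC levels. Their order of groups was therefore largely fixed in advance and is a description. ENSOCUG00000017892 (scaffold GL018774, 1150188 to 1204510, plus strand, 28 exon entries) had a Pearson r of 0.954. It was at 60.8 ± 3.05 CPM in microglia Ad-PPARg, 51.4 ± 11.4 in microglia Ad-GFP, 25.8 ± 5.23 in OPC Ad-PPARg and 14.9 ± 1.88 in OPC Ad-GFP (SD, n = 4 each). ENSOCUG00000008674 (chromosome 14, 82266989 to 82525068, plus strand, 36 exon entries) had an r of 0.948, and its OPC levels were 19.9 ± 7.50 after Ad-PPARg and 12.1 ± 1.31 CPM after Ad-GFP (SD, n = 4 each). Both were expressed in control OPC at a far larger part of their microglial level than ENSOCUG00000013194.

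The genes most opposed in pattern were lowest in microglia and highest in OPC of Ad-GFP kits. ENSOCUG00000025458 (scaffold GL018812, 11063 to 14241, minus strand, 6 exon entries) had an r of -0.940 and was at 11.02 CPM in microglia Ad-PPARg and at 17.1 CPM in OPC Ad-GFP. ENSOCUG00000002326 (chromosome 19, 29177229 to 29312617, plus strand, 25 exon entries) had an r of -0.931, at 27.1 and 90.1 CPM in the same groups. The 16 points share the difference between the cell types, and 115 of the 14698 other genes (0.782%) had an r above 0.9, so the values describe these libraries. By Spearman correlation 4 other genes took the places of these.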

How the data were processed

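Bulk RNA of the sorted cells was read on an Illumina HiSeq in paired-end mode, per the labels' protocols. Software listed in the submitters' processing notes is Subread 1.5.2, STAR 2.5.2b and bcl2fastq 2.17, with no role. The authors deposited raw read counts per gene, with Ensembl identifiers and the positions and lengths of exons, per the file headers. Genome build, annotation release and strand setting: not given in the sources used here.

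The gene and the lists were chosen with earlier results of these data known. Each treatment comparison was fitted on its 8 libraries, and the contrasts of cell types and the difference of effects on all 16, with edgeR 4.0.16 in R 4.3.3 (TMM, default filter on low counts, robust quasi-likelihood fits, Benjamini-Hochberg adjustment over all genes tested, threshold 0.05). The SE is the log2 fold change divided by the square root of F. Alternatives used DESeq2 1.42.0, limma 3.58.1, other scalings, no filter, summing or blocking by prefix or animal, and leaving out each library. The test planned between the cell types in Ad-GFP kits is not reported, because the OPC libraries in it had a part in choosing the gene. Log2 CPM for correlations had a prior count of 2. Named genes were the nearest tested gene on each side, of which 1 is not reported here, and the 2 highest and 2 lowest in Pearson r. The planned lists of PPAR pathway genes and cell type markers need symbols and were not used.

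Libraries of a group came from different animals, and the 24 pairs of libraries within groups all differed beyond sampling noise, which gives a chi-square of about 1 per gene (6.57 to 211 found). The identifiers pair the cell types of 6 animals; deviations from group means correlated at -0.116 to 0.265 (median 0.0596) over 14699 genes in these pairs.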

Additional observations from a re-analysis of the deposited data

Results flagged for a closer look

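The level of ENSOCUG00000013194 in microglia of Ad-GFP kits had a library far from the others: the gap between replicate 2, at 21.0 CPM, and the next library made up 0.846 of the range of the group, above the 95% critical value of 0.829 for 4 samples. Chance marks about 1 in 20 groups in this way, and 4 groups were looked at. The animal, K195-9, was at 0.537 CPM in OPC, the second lowest of its group. Without this library the log2 fold change in microglia was 0.42 (SE 0.18, edgeR adjusted p = 0.558).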

How the results depend on the processing

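The direction of the gene's 5 log2 fold changes held in every alternative run. Without each library in turn, the microglial treatment effect was 0.40 to 0.67, with an edgeR adjusted p of 0.161 to 0.829, the OPC effect 2.70 to 3.17, the difference of the effects 2.10 to 2.53, and OPC against microglia -5.44 to -5.01 in Ad-GFP and -3.06 to -2.75 in Ad-PPARg kits. The microglial effect passed the threshold in 1 alternative, limma voom with sample quality weights (0.61). The fit with the animal as a replicate block gave -5.21 in Ad-GFP kits (-5.42 with the 6 paired animals alone), -2.92 in Ad-PPARg kits (-2.85) and 2.29 for the difference; no test of the gene is reported for these 3 contrasts. Counts summed by prefix gave 0.42 in microglia and 2.92 in OPC; with the prefix as a random block, the OPC effect was 2.94 with an SE of 1.20. Scaling by library totals moved OPC against microglia in Ad-PPARg kits to -2.41 and the number of genes called lower in OPC of Ad-GFP kits from 4325 to 2845. The number of genes called in microglia, 0, was 121 by DESeq2, 1285 by limma voom with quality weights, 4 without the filter, 1 with the prefix block, and 0 to 4 without single libraries. The 4 genes of like and opposed pattern shared 0 with the choice by Spearman correlation. In control OPC, 3 to 16 counts per library limit the precision of every fold against that group.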
